A study of Mus musculus with 6 samples.

Results

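The mouse prolactin family is a set of hormone genes that arose by repeated duplication of the pituitary prolactin gene. Described here are 10 of its members that are made at the implantation site, chosen by symbol from the 24421 symbols of each count table. Prl8a2 and Prl3c1 are known from the decidua, the maternal lining that surrounds the implanted conceptus. The other 8 members, Prl3b1, Prl3d1, Prl2c2, Prl8a9, Prl4a1, Prl7a1, Prl5a1 and Prl2a1, are known from the trophoblast, the outer layer of the conceptus that forms the placenta. All 10 symbols were found and all 10 passed the filter on low counts.

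Trophoblast hormones of this family reach the mother's circulation and act on the corpus luteum, the mammary gland, blood vessels and immune cells. The placental lactogens bind the prolactin receptor and take over from pituitary prolactin during pregnancy. In the mouse, Prl3d1 (placental lactogen I) is made first, by trophoblast giant cells, and gives way to Prl3b1 (placental lactogen II) around midgestation. Prl8a2 encodes decidual prolactin-related protein, which binds heparin and stays in the matrix between decidual cells. Neither tissue is part of the embryo proper.

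The samples were 3 libraries from embryos homozygous for a knockout of Lphn2 (latrophilin-2, the adhesion receptor now named Adgrl2) and 3 from wild type embryos. The labels call all 6 whole embryo, strain C57BL/6N, embryonic day 9.5, and the series asks what the receptor does in heart development. The labels give neither the knockout allele, nor how many embryos went into a sample, nor whether the membranes and the decidua were removed. The assay counts, for each gene, short tags read from the 3' end of its transcripts.

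Total counts ranged from 14476809 to 23887717 in knockout and from 18352150 to 36213611 in wild type libraries. Levels are CPM, counts scaled to a common library size with TMM factors, and values of 3 libraries are always given for replicates 1, 2 and 3 in turn. Adgrl2 itself was read at 5.49, 1.67 and 2.78 CPM in the knockouts, against 10.9, 7.56 and 15.96 CPM in the wild types, and the tags may lie outside the deleted part, so these values do not check the labels. Knockout replicates 2 and 3 stood apart from the other libraries, with r of 0.961 with each other and of 0.835 to 0.883 with wild type libraries (across 13848 genes, which are not independent replicates). Knockout replicate 1 had r of 0.909 and 0.913 with those and of 0.956, 0.942 and 0.897 with wild type replicates 1, 2 and 3. The 12 heart and nervous system genes listed as markers summed to 73.8, 27.1 and 40.5 CPM in the knockouts, against 158, 96.8 and 717 CPM in the wild types, with wild type replicate 3 far above the rest. Of these 12, 8 were tested, all 8 had negative log2 fold changes and 5 had every knockout below every wild type, an order found in 9.39% of all tested genes. Nkx2-5, a heart regulator named outside the rule, was too scarce in every library to be tested. It had 0 counts in all 3 knockout libraries and stood at 0.254, 0 and 0.523 CPM in the wild types.

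The decidual member Prl8a2 (mm10 chromosome 13, 27345673 to 27354216, plus strand) was read at 2900.04, 1279 and 5335 CPM in the knockouts, against 14989, 28746 and 17981 CPM in the wild types. All 3 knockouts were lower than the lowest wild type. It made up 0.310%, 0.126% and 0.517% of all counts in the knockout libraries and 1.55%, 2.57% and 1.90% in the wild type libraries. The log2 fold change was -2.70 ± 0.54 (SE), and with adjusted p = 0.166 in edgeR's quasi-likelihood test it did not pass the threshold of 0.05 set over all 13848 genes. In whole-tissue RNA, fewer cells of a type and less RNA per cell cannot be told apart.

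Prl3c1 (chromosome 13, 27196659 to 27203749, plus strand), also called decidualin, was read at 10.6, 0.400 and 12.7 CPM in the knockouts, against 71.7, 146 and 92.2 CPM in the wild types. Again all 3 knockouts were lower than the lowest wild type, and knockout replicate 2 was far below the other two, with 6 counts. The group means were 7.91 ± 6.58 CPM in knockouts and 103 ± 38.5 CPM in wild types (SD, n = 3 each). Its log2 fold change of -3.70 ± 0.95 (SE) was also not past the threshold (edgeR, adjusted p = 0.177). Of all 13848 genes tested, 9.39% had every knockout value below every wild type value, the share against which the 2 of 10 members with that order, Prl8a2 and Prl3c1, are to be read.

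Prl8a2 and Prl3c1 did not keep a fixed ratio. There were 273, 3197 and 420.5 Prl8a2 counts for each Prl3c1 count in the knockouts, against 209, 197 and 195 in the wild types. The exact Poisson 95% interval of the Prl3c1 count put the ratio between 242 and 309 in knockout replicate 1, between 1469 and 8712 in replicate 2 and between 363 and 489.8 in replicate 3, against 199.96 to 218, 189 to 205 and 189 to 202 in the wild types. These intervals cover counting error only, and every Prl8a2 count was an even number. Relative to Prl8a2, Prl3c1 was thus scarcer in each knockout library than in each wild type library.

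**Figure D1:**
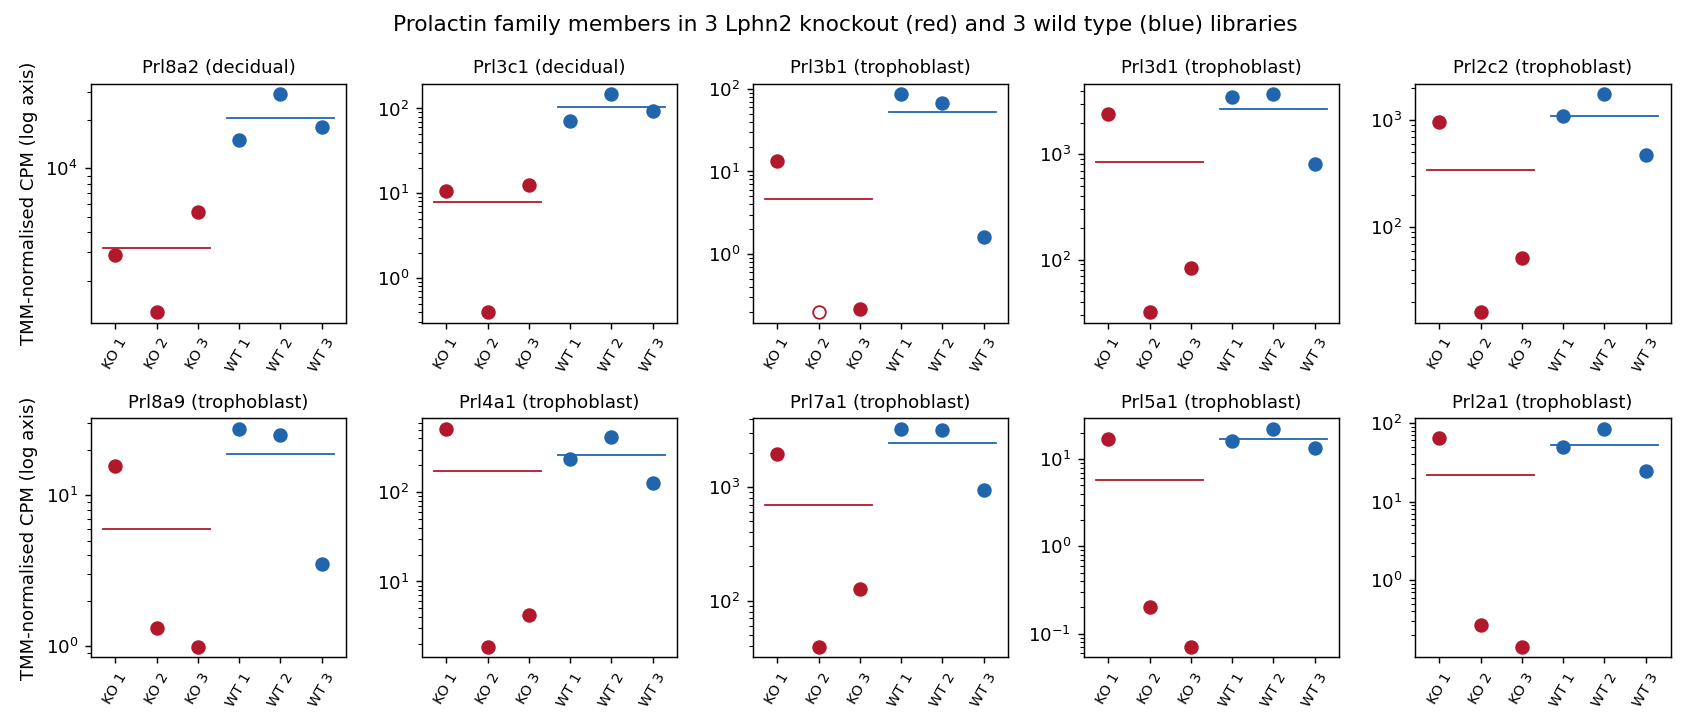
TMM-normalised CPM (log axis, a scale of its own in each panel) of the 10 members in each of 3 knockout libraries (red, left) and 3 wild type libraries (blue, right), with a line at each group mean. An open circle marks a count of 0 drawn at 3 counts. The 2 decidual members are lower in all 3 knockout libraries, while the 8 trophoblast members are low in knockout replicates 2 and 3 and, in knockout replicate 1, within the wild type range or (Prl4a1) above it.

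The trophoblast members followed another pattern, in which the knockout libraries disagreed among themselves. Prl3d1 (chromosome 13, 27094190 to 27100258, plus strand) was read at 2431, 32.0 and 83.8 CPM in the knockouts, against 3529, 3688 and 804 CPM in the wild types. Knockout replicate 1 lay above wild type replicate 3, so the groups overlapped. The means were 849 ± 1370.4 CPM in knockouts and 2674 ± 1621 CPM in wild types (SD, n = 3 each), with a log2 fold change of -1.65 ± 1.45 (SE) that did not pass (edgeR, adjusted p = 0.616).

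Prl3b1 (chromosome 13, 27241847 to 27249683, plus strand) was read at 13.6, 0 and 0.214 CPM in the knockouts, against 85.5, 68.3 and 1.62 CPM in the wild types. A count of 0 in knockout replicate 2 allows a level of up to 0.200 CPM. Wild type replicates 1 and 2 were high, and wild type replicate 3 lay below knockout replicate 1. The log2 fold change was -3.44 ± 1.83 (SE), not past the threshold (edgeR, adjusted p = 0.408).

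Set against each other, the 2 placental lactogens differed in their proportion between libraries. Prl3b1 was 0.555% of the Prl3b1 and Prl3d1 counts in knockout replicate 1 (exact 95% binomial interval 0.498 to 0.617%). It was 0 of 480 counts in knockout replicate 2 (0 to 0.766%) and 0.254% in replicate 3 (0.0525 to 0.742%). In wild type libraries the share was 2.37% (2.27 to 2.46%) in replicate 1, 1.82% (1.71 to 1.93%) in replicate 2 and 0.201% (0.154 to 0.258%) in replicate 3. Wild type replicate 3 was therefore the lowest wild type library both in the level of Prl3d1 and in the share of Prl3b1, and the groups overlapped. Every Prl3d1 count was an even number, which was not so for Prl3b1, and the cause was not tested. The size of these shares and the width of their intervals are uncertain to that extent.

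Prl7a1 (prolactin-like protein E, chromosome 13, 27633366 to 27642493, minus strand), which is known to promote megakaryocyte formation, was read at 1940.2, 39.3 and 126 CPM in the knockouts, against 3235, 3212 and 939 CPM in the wild types. The log2 fold change was -1.81 ± 1.29 (SE; edgeR, adjusted p = 0.538). Prl2c2 (proliferin, chromosome 13, 12996125 to 13005383, minus strand), which stimulates the growth of blood vessels, was read at 964, 16.1 and 51.7 CPM in the knockouts, against 1088, 1742 and 476 CPM in the wild types (-1.68 ± 1.33; edgeR, adjusted p = 0.579). For both genes knockout replicate 1 lay inside the wild type range and knockout replicates 2 and 3 far below it.

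Prl4a1 (prolactin-like protein A, chromosome 13, 28016212 to 28023559, plus strand), whose rat protein binds uterine natural killer cells, was the only one of the 10 members whose highest library was a knockout. It was read at 507, 1.87 and 4.21 CPM in the knockouts, against 236, 417 and 127 CPM in the wild types. The highest of all 6 libraries was thus knockout replicate 1 and the lowest was knockout replicate 2. Its log2 fold change of -0.60 ± 1.68 (SE) was the nearest to 0 of the 10 members (edgeR, adjusted p = 0.886).

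Knockout replicate 1 was likewise set apart from knockout replicates 2 and 3 in the remaining 3 members. Prl2a1 (prolactin-like protein M, chromosome 13, 27801654 to 27808729) stood at 65.2, 0.267 and 0.143 CPM in the knockouts, against 49.5, 83.2 and 24.7 CPM in the wild types. Prl5a1 (prolactin-like protein L, chromosome 13, 28142484 to 28151611) stood at 16.9, 0.200 and 0.0713 CPM in the knockouts, against 16.2, 21.9 and 13.3 CPM in the wild types. Knockout replicate 1 lay within the wild type range for both, and knockout replicates 2 and 3 held at most 4 counts of either. Prl8a9 (prolactin-like protein C2, chromosome 13, 27557995 to 27564606) stood at 15.6, 1.33 and 0.998 CPM in the knockouts, against 27.4, 25.2 and 3.53 CPM in the wild types. The log2 fold changes of Prl2a1, Prl5a1 and Prl8a9 were -1.25, -1.55 and -1.62, with adjusted p of 0.745, 0.634 and 0.536 (edgeR).

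Over all 10 members, 0 passed the threshold in either direction, where 7 of 13848 genes (0.0505%) passed lower and 0 higher. At an unadjusted p under 0.05 there were 2, Prl8a2 and Prl3c1, where 6.86% of all genes were lower at that level. DESeq2 called the same 2 genes lower (adjusted p = 9.81e-07 for Prl8a2 and 0.0241 for Prl3c1), where it called 2.87% of 13462 genes lower, and limma-voom called 0. DESeq2 gave no adjusted p for Prl3d1, Prl8a9 and Prl7a1. Over the alternatives the adjusted p ranged from 9.81e-07 to 1.0 for Prl8a2 and from 0.0241 to 0.975 for Prl3c1. All 10 fitted log2 fold changes were negative, as were 53.4% of those of all genes. The median was -3.20 over the 2 decidual members and -1.64 over the 8 trophoblast members, beside -0.04 over all genes. These 2 medians were -3.67 and -3.46 with limma-voom, so the gap between them depends on the fit.

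The comparison turned on knockout replicate 1 for the trophoblast members and not for the decidual members. Without it, 6 members passed lower (Prl3d1, Prl2c2, Prl4a1, Prl7a1, Prl5a1 and Prl2a1, edgeR adjusted p of 0.00855 to 0.0344), where 3.27% of 14249 genes passed lower, and the trophoblast median was -5.98. With knockout replicate 1 alone against the 3 wild type libraries the trophoblast median was -0.15, and Prl4a1, Prl5a1 and Prl2a1 had log2 fold changes of 0.98, 0.0016 and 0.33. Prl8a2 had -2.64 without knockout replicate 1 and -2.81 with that replicate alone, and Prl3c1 had -3.98 and -3.26. The labels carry sample codes of unstated meaning that begin with 32 in wild type replicate 1 and with 45 in all other libraries. Without wild type replicate 1, Prl8a2 had -2.88, Prl3c1 -3.90, Prl3d1 -1.38 and Prl3b1 -2.87.

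**Figure D2:**
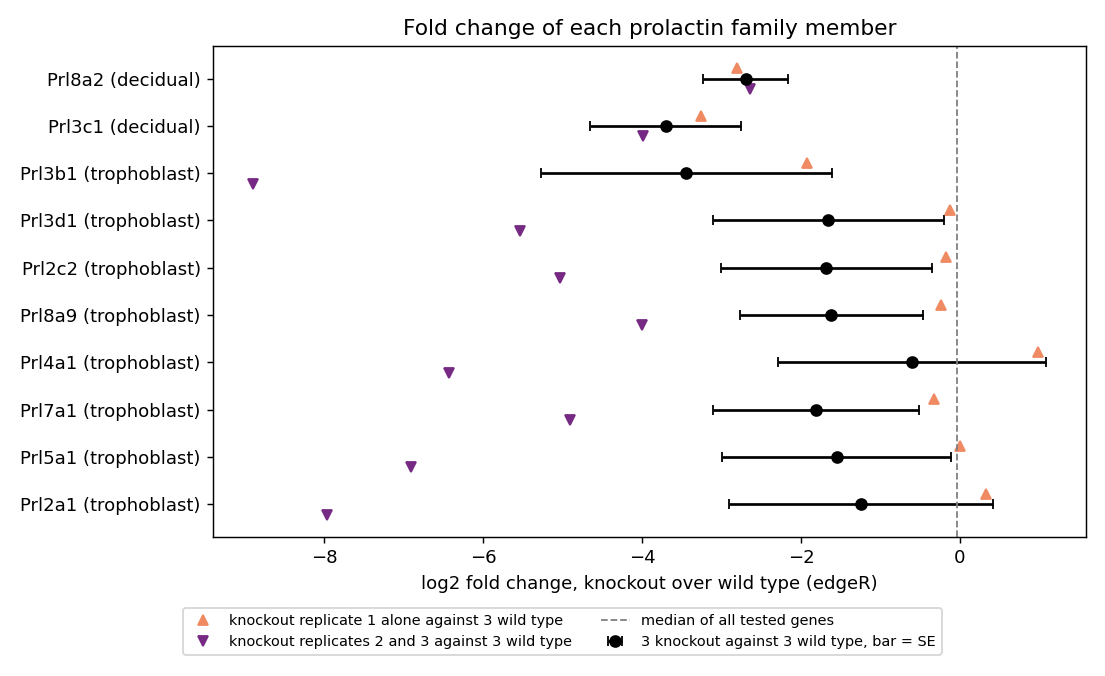
Log2 fold change of each member, knockout over wild type, from edgeR with all 6 libraries (black, bars show the SE), with knockout replicate 1 alone (orange) and without it (purple), and the median of all tested genes as a dashed line. The 3 estimates lie close together for Prl8a2 (-2.70, -2.81 and -2.64) and far apart for trophoblast members such as Prl4a1 (-0.60, 0.98 and -6.43).

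The contrast between the decidual and the trophoblast members was read within each library, where it does not depend on scaling. The summed counts of Prl8a2 and Prl3c1 were 0.489, 14.0 and 20.0 times the summed counts of the 8 trophoblast members in the knockouts, against 1.82, 3.12 and 7.57 times in the wild types. Knockout replicate 1 thus had the lowest ratio of all 6 libraries and knockout replicates 2 and 3 the highest. On the log2 scale the means were 2.37 ± 2.96 in knockout and 1.81 ± 1.04 in wild type libraries (SD, n = 3 each). The difference of 0.56 was smaller than the spread within either group and was 2.26, -0.16 and -0.42 without knockout replicates 1, 2 and 3 in turn. It was 0.09 without wild type replicate 1, 1.11 without wild type replicate 3, and 0.03 when the mean over genes of log2 CPM took the place of the summed counts. The ratios are of tags as counted, and every count of Prl8a2, Prl3d1 and Prl7a1 was an even number.

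Read as levels, the decidual sum was 2911, 1279 and 5347 CPM in the knockouts, against 15061, 28892 and 18073 CPM in the wild types. The trophoblast sum was 5953, 91.1 and 267 CPM in the knockouts, against 8267, 9257 and 2389 CPM in the wild types. Wild type libraries held both sets of transcripts. Knockout replicate 1 held a trophoblast sum within the wild type range with a decidual sum below it, and knockout replicates 2 and 3 were below the wild type range in both.

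**Figure D3:**
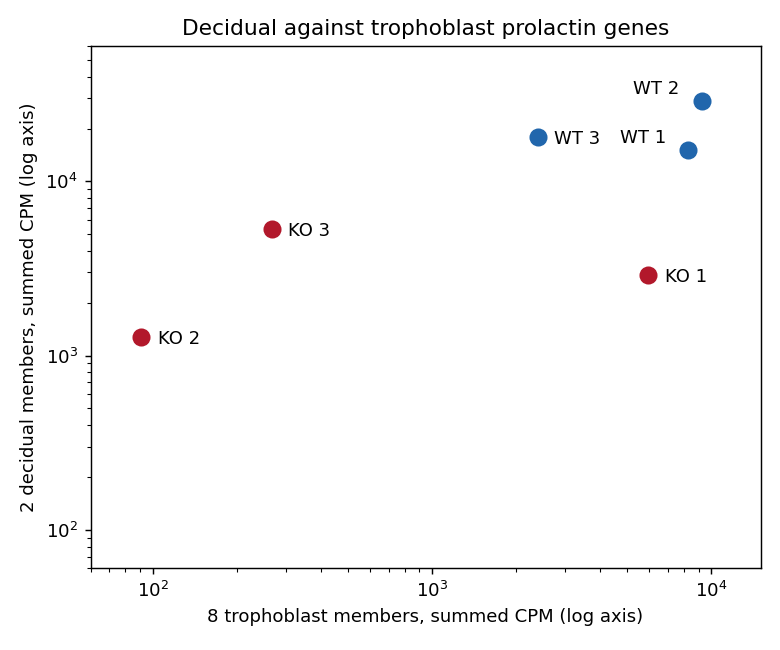
Summed CPM of the 2 decidual members (vertical, log axis) against summed CPM of the 8 trophoblast members (horizontal, log axis), 1 point per library, knockout in red and wild type in blue. Knockout replicate 1 sits beside the wild type libraries on the horizontal axis at 5953 CPM and with the other knockout libraries on the vertical axis at 2911 CPM.

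The make-up of the trophoblast counts was steadier than their sum, as far as the most abundant members go. Prl3d1 supplied 40.8%, 35.1% and 31.4% of the counts of the 8 members in the knockouts, against 42.7%, 39.8% and 33.7% in the wild types. Prl7a1 supplied 32.6%, 43.2% and 47.1% in the knockouts, against 39.1%, 34.7% and 39.3% in the wild types. Prl2c2 supplied 16.2% to 19.4% in knockout and 13.2% to 19.9% in wild type libraries. The summed counts behind these shares were 151804, 1367 and 3744 in the knockouts, against 228195, 151922 and 91424 in the wild types. Prl4a1 was the member whose share varied most in relative terms among these 4, at 8.51%, 2.05% and 1.58% in the knockouts, against 2.86%, 4.51% and 5.32% in the wild types. Shares of the scarcer members varied more. That of Prl2a1 was 1.10%, 0.293% and 0.0534% in the knockouts, against 0.599%, 0.898% and 1.03% in the wild types. Its shares in knockout replicates 2 and 3 rest on 4 and 2 counts. Every count of Prl3d1 and of Prl7a1 was an even number, which was not so for the other trophoblast members. These are shares of tags as counted and are set against each other only between libraries.

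**Figure D4:**
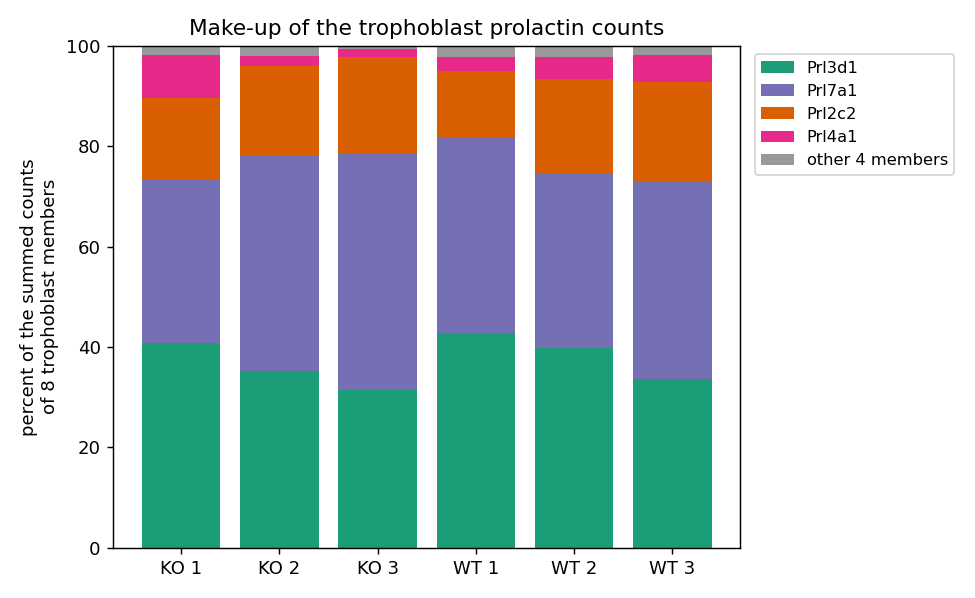
Percent of the summed counts of the 8 trophoblast members that came from Prl3d1, Prl7a1, Prl2c2, Prl4a1 and the other 4 members, in 3 knockout libraries (left) and 3 wild type libraries (right). Prl3d1 lies between 31.4% and 42.7% in all 6 libraries although the sums range from 1367 to 228195 counts.

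The family lies in clusters on chromosome 13, and the decidual and trophoblast genes are interleaved there. Of 26 family genes placed by symbol in GENCODE M21 on mm10, 23 lie within 1094 kb between 27057570 and 28151611, among them 9 of the 10 members. Prl2c2 lies in a separate group of 3 genes. Decidual Prl3c1 stands between Prl3d3 and Prl3b1, both trophoblast genes, and Prl8a2 stands between Prl6a1 and Prl2b1. Some copies are nearly identical, which limits what a tag can tell. Of the distinct stretches of 50 bases in the last 300 bases of annotated Prl2c2 transcripts, 91.1% also occurred in transcripts of other genes, chiefly Prl2c relatives, and 80.8% of those of Prl3d1 occurred in Prl3d2 or Prl3d3. The other 8 members shared 0%. The Prl3d1 and Prl2c2 values are thus uncertain as to copy, and each may stand for its group of copies.

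Promoter sequence is shown for 4 members, 1 decidual and 3 trophoblast, because neighbouring genes of this cluster had such different patterns across libraries. RefSeq windows on GRCm38.p6 were found for 8 of the 10 members, all but Prl8a2 and Prl2c2. Printed are the 250 bases before the annotated start of the transcript, 5′ to 3′ on the gene's strand. Capitals mark TATA-type words (TATAAA or TATATA on the gene's strand), GATA words (AGATAA or TGATAA or AGATAG or TGATAG on either strand) and AP-1 words (TGACTCA or TGAGTCA, each the reverse complement of the other). The windows are chr13:27196410-27196659 for Prl3c1, chr13:27242180-27242429 for Prl3b1, chr13:27093939-27094188 for Prl3d1, all on the plus strand, and chr13:27642494-27642743 on the minus strand for Prl7a1.
Prl3c1: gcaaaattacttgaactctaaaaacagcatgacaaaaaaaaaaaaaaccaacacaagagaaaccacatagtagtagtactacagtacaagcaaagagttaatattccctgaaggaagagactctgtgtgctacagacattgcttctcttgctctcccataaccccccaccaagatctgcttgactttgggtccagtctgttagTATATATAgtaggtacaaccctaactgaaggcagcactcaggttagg
Prl3b1: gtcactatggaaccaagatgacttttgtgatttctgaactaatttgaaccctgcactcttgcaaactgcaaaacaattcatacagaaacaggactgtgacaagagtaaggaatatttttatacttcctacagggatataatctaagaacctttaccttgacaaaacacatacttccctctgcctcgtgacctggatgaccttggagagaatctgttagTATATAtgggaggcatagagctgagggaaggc
Prl3d1: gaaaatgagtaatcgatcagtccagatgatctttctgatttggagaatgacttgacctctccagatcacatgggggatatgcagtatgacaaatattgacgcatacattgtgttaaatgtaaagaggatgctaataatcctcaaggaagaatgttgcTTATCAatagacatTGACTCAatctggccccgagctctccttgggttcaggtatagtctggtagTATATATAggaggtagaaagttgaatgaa
Prl7a1: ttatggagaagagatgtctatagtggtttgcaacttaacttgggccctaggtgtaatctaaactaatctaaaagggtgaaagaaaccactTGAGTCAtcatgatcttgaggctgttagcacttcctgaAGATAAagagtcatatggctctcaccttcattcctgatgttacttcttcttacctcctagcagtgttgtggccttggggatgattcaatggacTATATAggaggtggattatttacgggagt

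A TATATA word stood upstream of a start in all 8 members with a window, between 22 and 47 bases before the start. Prl3c1 was the only decidual member among these. A TATA-type word occurred in 11.5% of 32817 promoter windows of the same length, and TATATA was added to the search after these sequences were seen. Prl3d1 and Prl7a1 each held a GATA word and an AP-1 word, which no other of the 8 members held together. In Prl3d1 the GATA word TTATCA, on the opposite strand, began 93 bases and the AP-1 word TGACTCA 79 bases before the start. GATA words occurred in 26.6% and AP-1 words in 4.5% of all windows, and none of the marked words overlapped a word of another kind. Prl3c1 has a further annotated start with a GATA word (TTATCT) and no TATA-type word in its window. Gata2 and Gata3, named outside the rule because they are known to act on the Prl3d1 and Prl2c2 promoters in trophoblast, stood at 104, 61.5 and 74.7 CPM and at 121, 171 and 163 CPM in the knockouts. In wild type replicates 1, 2 and 3 they stood at 77.8, 97.5 and 53.4 CPM and at 69.5, 81.8 and 55.1 CPM. For Gata3 all 3 knockouts were higher than the highest wild type. Neither passed the threshold (edgeR, adjusted p = 0.925 and 0.166), and neither is confined to trophoblast.

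The rest of the family was checked from a list of 17 symbols. Among them Prl2c3 and Prl2c4, proliferin relatives, carried identical counts, and RefSeq lists the second symbol as a synonym of the first, so Prl2c4 was left out. Of the others 12 were tested, 0 passed and all 12 had negative log2 fold changes, with a median of -1.69. Their summed level was 2499, 35.8 and 110.2 CPM in the knockouts, against 3297, 4151 and 1001 CPM in the wild types, the same order of libraries as for the trophoblast members. Prl3d2, a further copy of placental lactogen I, kept close to 0.357 to 0.425 counts for each Prl3d1 count in knockout and 0.375 to 0.414 in wild type libraries. Much of the summed level came from Prl2c3 and Prl3d2, at 965 and 971 CPM in knockout replicate 1. Both share 3' end sequence with a member, Prl2c2 or Prl3d1, so the sum is not an independent check on the trophoblast members. Prl6a1, known in the rat from decidua as well as trophoblast, and Prl7a2, both named after their values were seen, were the other family genes in which all 3 knockouts were lower than the lowest wild type, a count of 2 of 12 that is not far from the 9.39% of all tested genes. Prl6a1 stood at 12.2, 0.400 and 3.42 CPM in the knockouts, against 21.4, 45.5 and 14.5 CPM in the wild types (log2 fold change -2.32; edgeR, adjusted p = 0.323). Pituitary prolactin itself (Prl) had 2 counts in wild type replicate 2 and 0 in the other libraries, and Prl3a1 had 0 in all.

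The prolactin receptor and 14 genes of its signalling were all tested, and 0 passed in either direction. Of the 15, 5 had negative and 10 positive log2 fold changes, with a median of 0.17. Prlr, named outside the rule for its role as the receptor, was read at 3.61, 2.13 and 4.63 CPM in the knockouts, against 16.2, 6.22 and 4.31 CPM in the wild types (log2 fold change -1.36; edgeR, adjusted p = 0.310). The groups overlapped, with wild type replicate 1 the highest. Stat3, which relays cytokine signals, stood at 869, 1153 and 1092 CPM in the knockouts, against 620.3, 843 and 483 CPM in the wild types. Every knockout library lay above every wild type library (log2 fold change 0.68; edgeR, adjusted p = 0.265), as in 12.1% of all tested genes. The same held for Shc1, an adaptor protein, with means of 351 ± 65.0 CPM in knockout and 201 ± 52.5 CPM in wild type libraries (SD, n = 3 each). Of the 15 genes, 3 had that order and 1 the opposite order, which 9.39% of all tested genes had. Jak2, Stat5a and Stat5b, named outside the rule as parts of the same pathway, had log2 fold changes of -0.11, 0.08 and 0.17 (edgeR, adjusted p = 0.852, 0.925 and 0.725).

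Most of the decidual markers listed here did not share the pattern of Prl8a2 and Prl3c1, which does not extend to decidual genes outside the list. Of 16 decidual markers outside the family, 0 passed, 11 had positive log2 fold changes and the median was 0.93. In 9 of the 16 every knockout library lay above every wild type library, as in 12.1% of all tested genes, and in 2 every knockout library lay below, near the 9.39% of all tested genes. Des, desmin of decidual and muscle cells, stood at 2014, 3529.9 and 3538 CPM in the knockouts, against 1170.2, 1493 and 928 CPM in the wild types (log2 fold change 1.34; edgeR, adjusted p = 0.166). The 2 genes with the opposite order were Erv3 and, named after its values were seen, Htra1, a secreted protease. Htra1 stood at 66.9, 28.7 and 149.5 CPM in the knockouts, against 757, 1307 and 650.4 CPM in the wild types (-3.47; edgeR, adjusted p = 0.165). Erv3 had means of 282 ± 201 CPM in knockout and 2479 ± 856 CPM in wild type libraries (SD, n = 3 each). Il11ra1, the receptor chain for interleukin-11 that decidua formation needs, had means of 1059 ± 108 CPM in knockout and 1222 ± 161 CPM in wild type libraries (-0.21; edgeR, adjusted p = 0.619).

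Markers of uterine natural killer cells, which lie in the decidua, had 10 of 10 positive log2 fold changes, a median of 1.51 and 0 past the threshold. Their summed level was 3053, 5478 and 4341 CPM in the knockouts, against 1251, 2262 and 955 CPM in the wild types. The list holds several granzyme genes, which resemble each other in sequence. The 16 decidual markers summed to 6245, 8893 and 9757 CPM in the knockouts, against 7747, 10826 and 6626 CPM in the wild types, so these sums overlapped where those of Prl8a2 and Prl3c1 did not. The largest part of the marker sum was Des in each knockout library and Erv3 in each wild type library. The part of tissue make-up in the low levels of Prl8a2 and Prl3c1 was not tested.

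Trophoblast markers outside the family ordered the libraries as the trophoblast members did. Of 20 such genes 18 were tested, 0 passed, 15 had negative log2 fold changes and the median was -1.06. They summed to 2112, 285 and 315 CPM in the knockouts, against 2427, 2662 and 753 CPM in the wild types. In knockout replicates 2 and 3 most of this sum was Gata2 (61.5 and 74.7 CPM) and Gata3 (171 and 163 CPM). Neither of these genes is confined to trophoblast. Tfap2c, a transcription factor of trophoblast, stood at 704, 15.9 and 41.5 CPM in the knockouts, against 797, 600.1 and 253 CPM in the wild types. Of the 20 genes, 6 had 0 counts in knockout replicate 2, 5 in knockout replicate 3 and 3 in wild type replicate 3. Yolk sac markers, 12 genes of the visceral endoderm, summed to 215, 25.4 and 39.3 CPM in the knockouts, against 460.04, 614 and 702 CPM in the wild types. In 8 of the 12 yolk sac markers every knockout lay below every wild type, an order found in 9.39% of all tested genes. The decidual members had that order and the trophoblast members did not. In the yolk sac sum, knockout replicate 1 nonetheless lay far above knockout replicates 2 and 3, as in the sum of the trophoblast members. None of the 12 passed the threshold. The part of trophoblast and yolk sac tissue in these results was not tested.

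**Figure D5:**
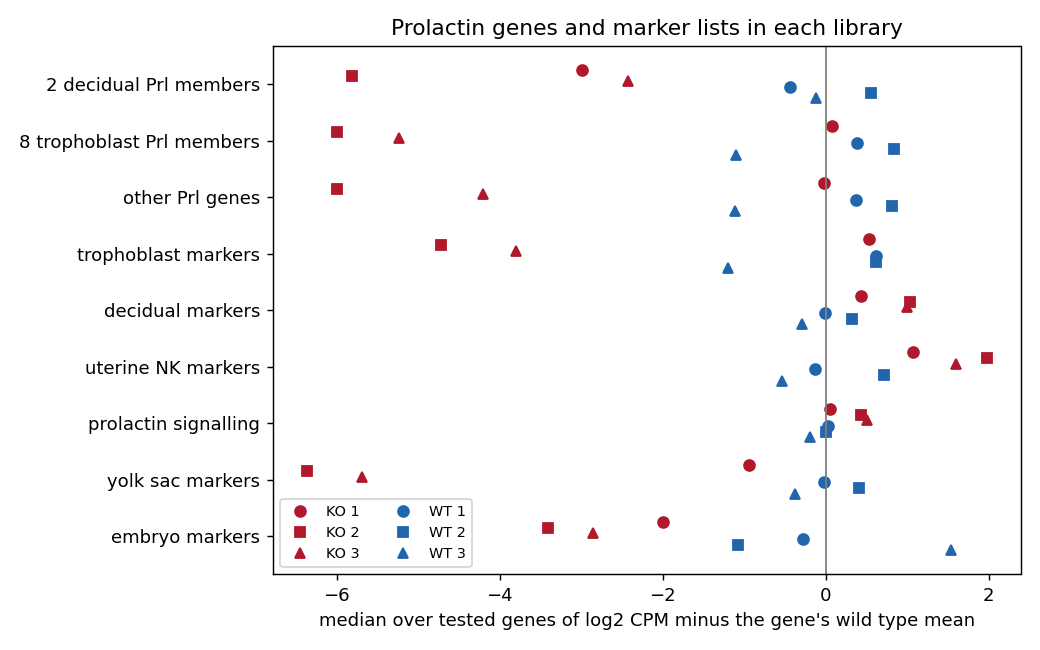
For each list, the median over its tested genes of log2 CPM minus the gene's mean over the wild type libraries (horizontal), for 3 knockout libraries (red) and 3 wild type libraries (blue), with Prl2c4 counted among the other Prl genes. The 2 decidual members lie at -2.99, -5.81 and -2.42 in the knockouts while the decidual markers outside the family lie at 0.44, 1.04 and 0.997, and the 8 trophoblast members lie at 0.08, -5.99 and -5.23.

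The genes most like Prl8a2, Prl3c1 and Prl3b1 across the 6 libraries were sought among 9521 genes, with the prolactin family and predicted genes left out. The measure was the root mean square difference of log2 CPM after centring each gene on its own mean. A small value means that a gene kept close to the same relative levels. For Prl8a2 these were Rimklb (0.22), Adamts5 (0.28), Ccdc155 (0.30), Ntn5 (0.30) and Kng2 (0.31). Rimklb, an enzyme that makes N-acetylaspartylglutamate, stood at 53.7, 32.8 and 117 CPM in the knockouts, against 455, 634 and 447 CPM in the wild types. For Prl3c1 they were Ptgds (0.40), Cyp26b1 (0.50), Gdpd2 (0.54), Prr9 (0.63) and Lipg (0.63). Cyp26b1, which breaks down retinoic acid, stood at 62.8, 6.00 and 113 CPM in the knockouts, against 706, 744 and 465 CPM in the wild types. For Prl3b1 the nearest genes were Tpbpa (1.07), Ctsj (1.08), Rhox5 (1.31), Sct (1.33) and Rhox9 (1.35), of which Tpbpa marks the spongiotrophoblast and Ctsj is a placental cathepsin. None of the 9521 genes came as close to Prl3b1 as the genes named for Prl8a2 did to Prl8a2. Prl3b1 had 0 and 3 counts in knockout replicates 2 and 3 and varied more between libraries than Prl8a2, which widens this measure. The distances are thus not comparable between these target genes.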

How the data were processed

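Libraries were made from 500 ng of Trizol-extracted RNA by QuantSeq (Lexogen), a 3' tag kit, per the labels' protocols. The authors deposited a table of raw counts, whole numbers by gene symbol, for every sample. Bowtie2, edgeR and the build mm10 are named, per the submitters' processing notes. The sources used here do not give versions, annotation, counting program or the handling of strand and of reads with several matches. Groups and replicate numbers come from the labels, which do not say that samples are separate animals, so the p-values reflect only how far these samples scatter, possibly for technical reasons.

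The 6 tables were joined by symbol. No row lacked a symbol. Genes were kept with filterByExpr (minimum count 10), leaving 13848, scaled by TMM and tested with edgeR 4.0.16 (quasi-likelihood, no covariate). P-values were adjusted by Benjamini-Hochberg over all tested genes, with a threshold of 0.05. The standard error is the fold change over the square root of the F statistic. CPM of all symbols use the same scaling. Log2 CPM have a prior count of 2. DESeq2 1.42.0 and limma 3.58.1 served as alternatives (R 4.3.3), and Python 3.11.15 for sequences and figures. On simulated counts with 200 genes changed 4-fold, the edgeR test of knockout against wild type over 13732 genes called all 200 and 10 unchanged genes. The simulation gave every gene the same spread between replicates and made the knockout libraries alike. It therefore checks that the code runs and does not show what the test can find in these libraries.

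The members and gene lists were chosen with earlier results of these data known. Every member is named. Of each other list, counts are given with values for members of high mean CPM, at most 4, and other names are said to be outside this rule. Likeness was ranked among tested genes of at least 5 CPM on average, outside the family and without predicted genes. A level of 0 is limited at 3 counts.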

Additional observations from a re-analysis of the deposited data

How the results depend on the processing

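The 10 members kept negative log2 fold changes in 167 of 170 values over 17 alternative settings, and the 3 exceptions were Prl4a1 (0.98), Prl5a1 (0.0016) and Prl2a1 (0.33) with knockout replicate 1 alone against wild type. Leaving out 1 library at a time gave 0 to 6 members called lower, 0 to 466 genes lower and 0 to 252 higher, the highest without knockout replicate 1 each time. The 7 genes lower became 0 without knockout replicate 2, knockout replicate 3 or wild type replicate 1, and 11 without wild type replicate 2. DESeq2 called 2 members and 387 genes lower and 470 higher. The number of genes lower was 0 with 1 symbol per identical set of counts and with knockout replicate 1 alone. Over the libraries left out, medians ranged from -5.98 to -1.09 for the trophoblast members, -5.10 to -1.12 for the other family genes (Prl2c4 included), -5.25 to -0.50 for trophoblast markers, -7.37 to -1.93 for yolk sac markers and -4.64 to -1.87 for embryo markers. The decidual marker median was 0.42 with knockout replicate 1 alone. The trophoblast marker median was 0.37 with knockout replicate 1 alone. Limma-voom gave Prl3d1 -3.57 and Prl4a1 -3.35, against -1.65 and -0.60 in edgeR, and the cause was not tested.

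With the replicate block, the number of genes lower was 0, no member was called, and the median was -3.82 over the trophoblast and -3.44 over the decidual members, the opposite order to the fit without it. The titles share only a number: deviations of same-numbered libraries had r of 0.13, -0.02 and 0.07, and not every library correlated best with its own number. Counts at or under 4 in knockout replicates 2 and 3 limit Prl5a1, Prl2a1 and Prl3b1. For Prl8a2 4, for Prl3c1 4 and for Prl3b1 2 of 5 nearest genes were the same with a prior count of 0.5.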
